A study of Mus musculus with 12 samples.

Results

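The small heat shock proteins are a family of chaperone genes, and Bag3 is a cochaperone gene whose protein partners include HSPB8 of that family. They were followed here after noise in the cochlea, the coiled organ in which hair cells detect sound. The 7 genes Hspb1, Hspb2, Hspb6, Hspb7, Hspb8, Cryab and Bag3 were chosen by symbol, and all 7 were found among the 35496 genes of the count table. Each passed the filter on low counts that left 19497 genes to test. The animals were mice of the inbred strain FVB/NCrl at postnatal day 60, and RNA was taken directly after 30 minutes of exposure while awake. The 3 groups of 4 libraries had noise of 70 dB SPL (ambient sound, the control), 94 dB SPL (loud) or 105 dB SPL (very loud), where SPL is sound pressure level. No genotype or drug separates the groups. Whether each library holds 1 animal or pooled animals is not labelled. The p-values therefore reflect only how far these libraries differ from each other, which may be technical.

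Small heat shock proteins bind unfolding proteins without using ATP and hold them in a state from which other chaperones can refold them. They assemble into oligomers through a shared alpha-crystallin domain. Several are abundant in muscle, where they guard the contractile and filament network, and heat shock factor HSF1 induces some of them under protein stress. BAG3 links HSPB8 and HSP70 chaperones and hands misfolded clients to autophagy. In the inner ear, heat shock proteins are known as part of the response to heat, drugs and noise.

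Promoter windows of RefSeq (build GRCm38.p6, 300 bases from 250 before to 50 after the start) were at hand for 5 of the 7 genes, in 6 windows, with no entry used for Hspb2 and Cryab. The letters searched were those of a heat shock element, in which GAA units alternate in orientation: GAANNTTC and TTCNNGAA, each of which reads the same on both strands. GAANNTTC was present for 4 of the 5 genes (Hspb1, Hspb6, Hspb8 and Bag3) against 9.04% of the 27025 genes with a window (7.86% of 32851 windows). All 4 genes had it in the same spelling, GAAGTTTC, which 1.35% of all genes hold on either strand (1.21% of windows), a spelling singled out after the sequences were seen. The Hspb7 window held neither pair, and no window of these genes held TTCNNGAA (8.52% of all windows). A longer element of 3 alternating units (0.603% of all windows, 0.662% of all genes) contains TTCNNGAA. Its absence from the windows of these genes therefore follows from the absence of TTCNNGAA and adds nothing to it. Within the windows the matches are pairs of units only. The Bag3 match ends at the last base of its window, so a further unit after it could not be seen. A match is a description of letters and not a binding site. The stretches of 30 bases around the shared letters are printed so that the surrounding bases can be compared, with GAAGTTTC in capitals and each read 5′ to 3′ along its gene.
Hspb1 (chr5:135887791-135887820, plus strand): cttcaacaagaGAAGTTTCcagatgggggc
Hspb6 (chr7:30553170-30553199, plus strand): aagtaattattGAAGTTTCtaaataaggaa
Hspb8 (chr5:116422844-116422873, minus strand): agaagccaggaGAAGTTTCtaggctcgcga
Bag3 (chr7:128523603-128523632, plus strand): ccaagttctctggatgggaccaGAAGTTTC
The first capital lies 117 bases before the start for Hspb1 and 120 before it for the second Hspb6 window, but at base 3 from the start for Hspb8 and base 43 for Bag3. Positions count from the RefSeq start, which for Bag3 lies upstream of the GENCODE gene start given further on, and which for the second Hspb6 window lies inside the GENCODE gene. Hspb1 was the one gene with GAANNTTC at 2 places, so its 250 bases before the start are printed whole, with both matches in capitals (chr5:135887669-135887918, plus strand).
Hspb1: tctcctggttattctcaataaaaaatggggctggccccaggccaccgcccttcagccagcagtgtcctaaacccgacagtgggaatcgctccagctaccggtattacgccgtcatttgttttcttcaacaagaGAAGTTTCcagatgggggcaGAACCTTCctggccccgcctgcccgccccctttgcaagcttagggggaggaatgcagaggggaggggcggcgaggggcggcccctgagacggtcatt

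At the transcript level the 7 genes chosen were abundant in the ambient cochlea, with 1 exception. Other small heat shock genes were not ranked here. Levels between genes are given per kilobase of exon, as RPKM (CPM, the counts scaled to library size, divided by exon length in kilobases). Cryab, which encodes alpha-B crystallin, was highest at 70 dB with 249 ± 54.1 RPKM (SD, n = 4), above 99.3% of the genes tested. Hspb1 followed with 144 ± 74.2 RPKM, and the ranges of these neighbours overlapped (189 to 313 RPKM for Cryab and 77.1 to 224 for Hspb1). Hspb6, Hspb8 and Bag3 came next with 67.0 ± 13.2, 57.7 ± 10.8 and 57.7 ± 8.33 RPKM (SD, n = 4) and could not be ranked, since their ranges overlapped one another. The lowest Hspb1 library also lay inside the Hspb6 range of 52.1 to 83.7 RPKM. Hspb7 had 33.8 ± 11.8 RPKM, with all 4 libraries under every Bag3 library, although its range reached into that of Hspb8 (42.1 to 66.8 RPKM). Hspb2 stood last with 5.40 ± 0.899 RPKM, above 57.6% of the genes tested, and its range of 4.33 to 6.23 RPKM was clear of that of Hspb7 (23.4 to 45.9). At 94 dB Cryab and Hspb1 no longer overlapped, with 279 to 332 RPKM for Cryab and 211 to 260 RPKM for Hspb1.

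**Figure D1:**
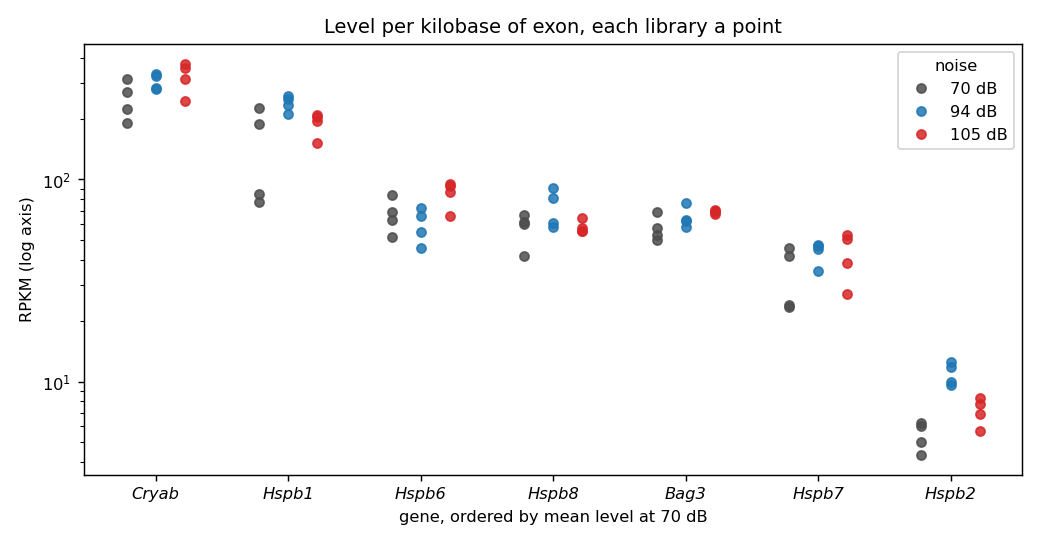
RPKM on a log axis for each gene, ordered by its mean at 70 dB, with every library a point and the 3 noise levels side by side in colour. Cryab and Hspb1 lie at the top, the middle genes overlap, and Hspb2 lies alone below all other genes in all 12 libraries.

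Between the noise groups, 1 of the 7 genes differed past the threshold. At 94 dB against 70 dB, Hspb2 rose and the other 6 were not called. A call means a Benjamini-Hochberg adjusted p under 0.05 in the quasi-likelihood test of edgeR, by which 13.9% of all genes tested were called higher and 12.2% lower (26.1% in either direction). At 105 dB against 70 dB none of the 7 was called, where 1.11% of all genes were called higher and 0.508% lower (1.62% in either direction). There, 3 of the 7 had an unadjusted p under 0.05 (Hspb2, Cryab and Bag3), and DESeq2 called 0. An unadjusted edgeR p of 0.0490 ranked only 3606 among the 19497 genes tested in this comparison, so such values were common over all genes. At 105 dB against 94 dB, Hspb2 fell and the other 6 were not called, where 8.06% of all genes were called higher and 9.23% lower (17.3% in either direction). With upper-quartile factors the larger side of the calls over all genes turned, to 2329 higher and 2847 lower at 94 dB against 70 dB and to 1702 higher and 1667 lower at 105 dB against 94 dB. A share of 1 in 7 is near the background in both comparisons that include 94 dB, so the counts say nothing particular about this family. The fitted log2 fold change was positive for 6 of 7 genes at 94 dB, with a median of 0.33 against -0.018 over all genes, and for 7 of 7 at 105 dB, with a median of 0.34 against -0.0039. Both of these comparisons share the 70 dB libraries. The 14 skeletal muscle markers tested had positive values for 10 genes at 94 dB (median 0.20) and 14 at 105 dB (median 0.29). The 6 cardiac and slow muscle markers were positive for 6 of 6 in both comparisons, with a median of 0.54 at 94 dB and 0.37 at 105 dB, each above the median of the 7 genes. Of these, the slow troponin gene Tnnt1 rose at 94 dB (log2 fold change 0.70; edgeR adjusted p = 0.0245). The part of muscle in the values of the 7 genes was not tested. Libraries of the groups did not overlap for Hspb2, higher at 94 dB than at 70 dB (13.0% of all genes), and for Hspb1 and Hspb2, lower at 105 dB than at 94 dB (10.8% of all genes lower and 10.5% higher). None of the 7 was without overlap at 105 dB against 70 dB, where 5.78% of all genes were higher and 5.03% lower in this way.

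**Figure D2:**
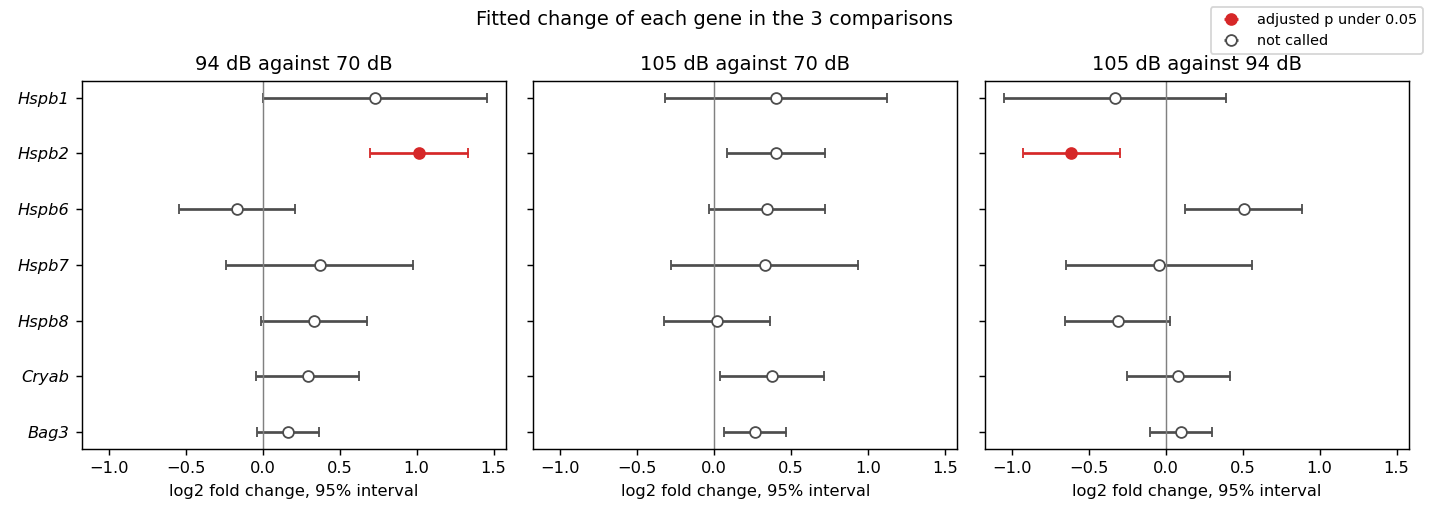
Log2 fold change (horizontal axis) of each gene with its 95% interval from the edgeR fit, in 3 panels for 94 dB against 70 dB, 105 dB against 70 dB and 105 dB against 94 dB. Filled red points passed an adjusted p of 0.05, which Hspb2 did at 1.02 for 94 dB against 70 dB and at -0.61 for 105 dB against 94 dB.

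Hspb2 encodes a small heat shock protein of heart and skeletal muscle that binds the myotonic dystrophy kinase. The gene (ENSMUSG00000038086; GRCm38 chromosome 9, 50751078 to 50752354, minus strand) had 5.20, 5.05, 4.18 and 3.61 CPM (TMM-scaled) in replicates 1 to 4 at 70 dB. It had 8.07, 8.26, 9.84 and 10.4 CPM at 94 dB, and 6.46, 5.76, 6.95 and 4.77 CPM at 105 dB. Every 94 dB library lay above every library of the other groups, and the 105 dB libraries overlapped those at 70 dB in replicate 4. The mean of 9.15 ± 1.16 CPM at 94 dB against 4.51 ± 0.750 CPM at 70 dB (SD, n = 4) gave a fold of 2.02 and a log2 fold change of 1.02 (SE 0.15; edgeR adjusted p = 2.70e-04). The call held in all 21 alternatives, with adjusted p from 5.58e-09 to 0.0104. At 105 dB the mean was 5.98 ± 0.950 CPM against 9.15 ± 1.16 CPM at 94 dB, a log2 fold change of -0.61 (SE 0.15; edgeR adjusted p = 0.0109). Set against 70 dB, the 105 dB value was 0.40 (95% interval 0.084 to 0.72; edgeR adjusted p = 0.175). These values rest on 115 to 222 Hspb2 counts per library in the 70 dB group, 274 to 389 in the 94 dB group and 177 to 259 in the 105 dB group.

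The size of the Hspb2 change differed between fits. Its exons are short (834 bases, longer than 7.06% of genes tested) and rich in GC (59.6%, above 95.1% of them). After removal of each library's fitted dependence on GC and length, the 94 dB value was 0.62 (edgeR adjusted p = 0.00295). The value for 105 dB against 94 dB was then -0.34 and not called (edgeR adjusted p = 0.0843). It was also not called without 94 dB replicates 3 and 4, which had the lowest mitochondrial shares of all libraries, 2.68% and 2.73% (edgeR adjusted p = 0.206, with a log2 fold change of -0.45). The part of library composition in the value was not tested beyond these fits.

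Cryab is the head-to-head neighbour of Hspb2, transcribed from the opposite strand (ENSMUSG00000032060; chromosome 9, 50751325 to 50756636, plus strand). In the GENCODE annotation the exons of the pair share 252 bases, which is 30.2% of the Hspb2 exons and 17.0% of the Cryab exons. The use of strand in counting is not given in the sources used here, so reads from the shared bases cannot be told apart and both values are uncertain to that extent. Cryab had 329, 398, 463 and 280 CPM in replicates 1 to 4 at 70 dB, 413, 418, 491 and 478 CPM at 94 dB, and 528, 463, 554 and 361 CPM at 105 dB. The 70 dB libraries reached into the range of both noise groups, and replicate 4 at 105 dB lay below all 94 dB libraries. The log2 fold change was 0.29 at 94 dB (95% interval -0.045 to 0.63; edgeR adjusted p = 0.189) and 0.37 at 105 dB (0.037 to 0.71; edgeR adjusted p = 0.223). Hspb2 reads were 1.95%, 1.98%, 2.01% and 2.18% of Cryab reads in the 94 dB libraries, against 0.902% to 1.58% in the 70 dB group and 1.22% to 1.32% in the 105 dB group. The share was highest in the 94 dB libraries with no overlap, a description added after the values were seen and given no test.

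**Figure D3:**
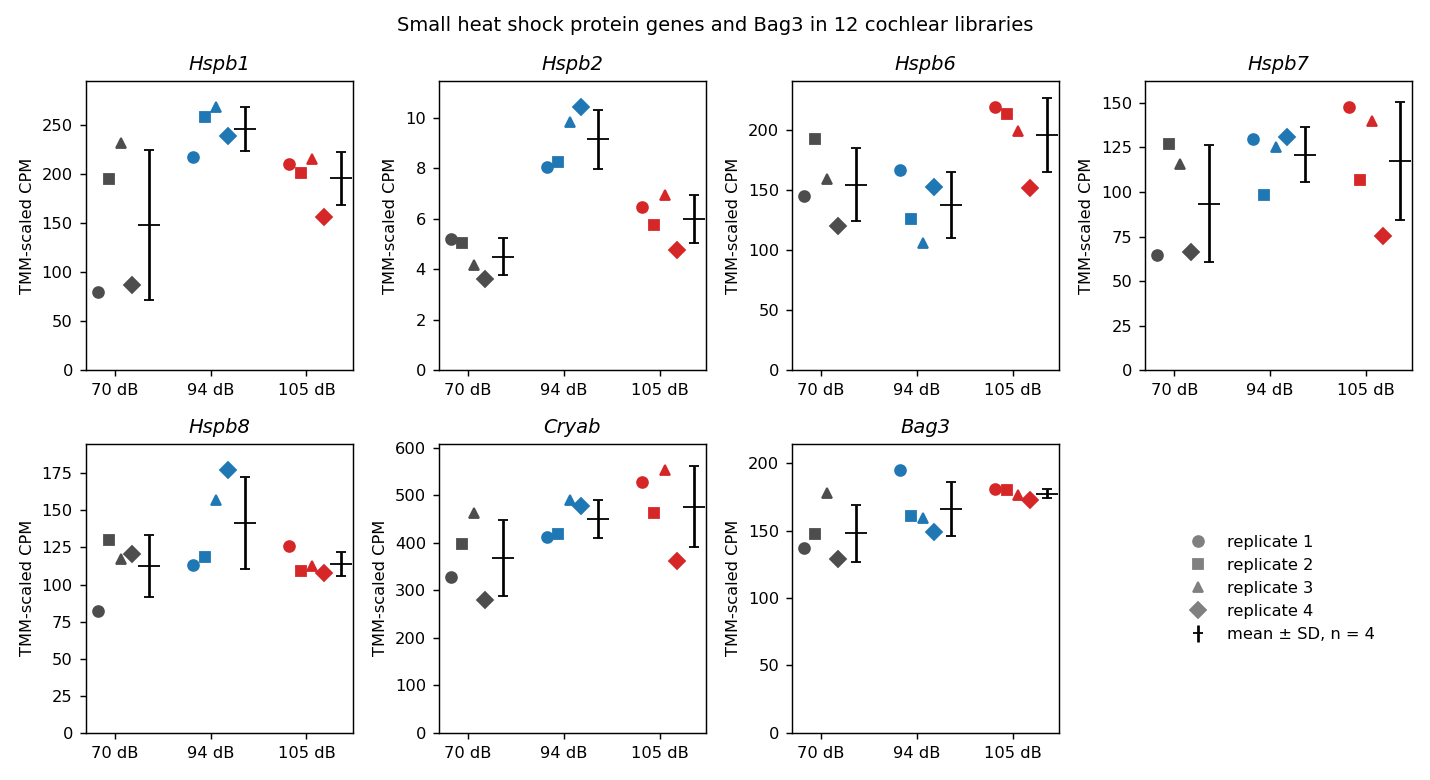
TMM-scaled CPM (vertical axis, from 0) of each gene in its own panel at 70, 94 and 105 dB, with a marker shape for each replicate number and the mean ± SD (n = 4) beside each group. Hspb2 at 94 dB lies above all other libraries of that gene, and Hspb1 and Hspb7 at 70 dB fall into a low and a high pair.

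Hspb1 encodes the heat-inducible small heat shock protein that also regulates actin filaments (ENSMUSG00000004951; chromosome 5, 135887919 to 135889563). The 70 dB libraries had 79.5, 195, 231 and 87.2 CPM in replicates 1 to 4. The 94 dB libraries had 218, 258, 268 and 239 CPM, and the 105 dB libraries 211, 201, 215 and 156 CPM. Replicates 2 and 3 at 70 dB thus read at noise-group levels while replicates 1 and 4 were below every exposed library. The mean was 246 ± 22.3 CPM at 94 dB against 148 ± 76.5 CPM at 70 dB (SD, n = 4), and the coefficient of variation was 9.06% at 94 dB against 51.6% at 70 dB. The log2 fold change of 0.73 (95% interval 0.0047 to 1.46) was not called by edgeR (adjusted p = 0.129). Without 70 dB replicate 3 it was 1.03 and called (edgeR adjusted p = 0.0389), in a range of 0.0389 to 0.647 over the 21 alternatives. At 105 dB the value was 0.40 (-0.32 to 1.12; edgeR adjusted p = 0.538). Every 105 dB library lay below every 94 dB library of Hspb1, as in 10.8% of genes tested, but this difference of -0.33 was not called (edgeR adjusted p = 0.539). A fit of only the 8 libraries compared called it (edgeR adjusted p = 0.0429, in a range of 0.0429 to 0.994). Over the 21 alternatives this difference ran from -0.38 to -0.0063, against -0.38 to -0.23 without each library in turn. The 94 dB value against 70 dB ran from 0.27 to 1.03, against 0.53 to 1.03 without each library. The size of both thus depends on the fit. The Hspb1 exons are short (1031 bases) and rich in GC (61.7%, above 98.0% of genes tested).

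The same ambient libraries were low for other inducible chaperones, named here after their values were seen. Hspa1a, the inducible HSP70 gene, had 2.90, 12.7, 25.4 and 3.29 CPM in 70 dB replicates 1 to 4 and lay between 22.2 and 31.4 CPM in the 94 dB group and 23.5 and 43.7 CPM in the 105 dB group. Its near-identical copy Hspa1b had 15.0, 61.2, 118 and 14.2 CPM at 70 dB, and the split of reads between these copies is uncertain. Replicates 1 and 4 were the low pair for Hspb1, Hspb7, Hspa1a and Hspa1b, and also the lowest 70 dB libraries for Hspb6, Cryab and Bag3. Hspb2 and Hspb8 did not share this. Hspb2 was highest in replicate 1 (5.20 CPM), and Hspb8 was higher in replicate 4 (121 CPM) than in replicate 3 (118 CPM). Some chaperone genes outside the muscle lists had the same low pair. Hsph1 had 141, 257, 353 and 166 CPM in 70 dB replicates 1 to 4, and Dnajb1 67.0, 99.4, 125 and 70.5 CPM. Not all partners did, and Ubb went the other way with 799, 615, 565 and 695 CPM. Within the 70 dB group, 2 of the 3 muscle lists were also lowest in replicates 1 and 4, although the skeletal sums of replicates 1 and 3 were close. Cardiac and slow muscle markers summed to 132, 249, 181 and 150 CPM in 70 dB replicates 1 to 4, and skeletal muscle markers to 7818, 10640, 7939 and 6890 CPM. Smooth muscle and pericyte markers did not share this order, with 397, 417, 386 and 399 CPM. A lower skeletal sum, 5742 CPM, was found in 94 dB replicate 3. The part of muscle in the pattern was not tested. In bulk tissue, fewer cells of a type and less RNA per cell cannot be told apart.

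Hspb6 and Hspb7 are small heat shock genes of muscle: Hspb6 protein acts in smooth and cardiac muscle relaxation, and Hspb7 is prominent in heart and skeletal muscle. Hspb6 (ENSMUSG00000036854; chromosome 7, 30552178 to 30555443) had 145, 192, 159 and 120 CPM at 70 dB, 167, 126, 105 and 152 CPM at 94 dB, and 218, 213, 198 and 151 CPM at 105 dB. The groups overlapped in each comparison, although 3 of 4 libraries at 105 dB were above all others. It was the one gene of the 7 with a negative value at 94 dB, a log2 fold change of -0.17 (95% interval -0.54 to 0.21; edgeR adjusted p = 0.524). Against 94 dB the 105 dB value was 0.51 (0.13 to 0.88) with an edgeR adjusted p of 0.0656. That call was made in 5 of the 21 alternatives, namely by DESeq2 (0.00937) and without 70 dB replicate 2 (0.0455), 70 dB replicate 4 (just under 0.05), 94 dB replicate 1 (0.0391) or 105 dB replicate 4 (0.0395). The range over all of them was 0.00937 to 0.339. Its exons overlap those of Proser3 on the other strand by 122 bases and of Lin37 by 3 bases, so a small part of its reads is uncertain.

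Hspb7 (ENSMUSG00000006221; chromosome 4, 141420779 to 141425311) had 64.9, 127, 116 and 66.1 CPM at 70 dB, 130, 98.2, 125 and 131 CPM at 94 dB, and 148, 107, 140 and 75.2 CPM at 105 dB. The spread within the 70 dB and 105 dB groups was as wide as any difference between groups. The fitted log2 fold change was 0.37 at 94 dB (95% interval -0.24 to 0.98) and 0.33 at 105 dB (-0.28 to 0.93), with edgeR adjusted p of 0.355 and 0.550. These intervals do not show that Hspb7 stayed level, since they reach almost to a doubling.

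Hspb8 and Bag3 encode partners of 1 complex that sorts misfolded clients to autophagy. Hspb8 (ENSMUSG00000041548; chromosome 5, 116408491 to 116422864, minus strand) had 82.0, 130, 118 and 121 CPM at 70 dB, 113, 119, 157 and 177 CPM at 94 dB, and 126, 109, 113 and 108 CPM at 105 dB. The upper 94 dB values came from replicates 3 and 4, and the other 2 lay inside the range of the other groups. The log2 fold change was 0.33 at 94 dB (95% interval -0.013 to 0.67; edgeR adjusted p = 0.146) and 0.017 at 105 dB (-0.33 to 0.36; edgeR adjusted p = 0.965).

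Bag3 (ENSMUSG00000030847; chromosome 7, 128523616 to 128546981) had 137, 148, 178 and 129 CPM at 70 dB, 195, 161, 159 and 149 CPM at 94 dB, and 181, 180, 176 and 173 CPM at 105 dB. The 105 dB libraries were nearly level, with a coefficient of variation of 2.05% against 14.4% at 70 dB. All but 1 of the 70 dB libraries lay below them, the exception being replicate 3. The mean was 177 ± 3.63 CPM at 105 dB against 148 ± 21.3 CPM at 70 dB (SD, n = 4), a log2 fold change of 0.26 (95% interval 0.062 to 0.46; edgeR adjusted p = 0.165). At 94 dB it was 0.17 (-0.034 to 0.37; edgeR adjusted p = 0.210). Without 70 dB replicate 3 both were called, at 0.37 for 105 dB (edgeR adjusted p = 0.0436, range 0.0436 to 0.363) and 0.27 for 94 dB (edgeR adjusted p = 0.0368, range 0.0368 to 0.965). The 94 dB value was -0.011 with the GC and length trend removed, so its sign depends on that step. Against 94 dB, the 105 dB values of Hspb7, Hspb8, Cryab and Bag3 were -0.043, -0.31, 0.083 and 0.097, with edgeR adjusted p of 0.199 to 0.935.

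How the genes varied together was measured over the 12 libraries by Pearson's r of log2 CPM for all 21 pairs. Of these, 18 were positive, from -0.20 for Hspb6 with Hspb8 to 0.89 for Hspb7 with Cryab, and 3 passed a two-sided permutation test adjusted over the 21 pairs. The pair Hspb7 and Cryab had r = 0.887 (permutation p = 2.20e-04, adjusted 0.00462) and Spearman's rho of 0.790 (permutation p = 0.00329, adjusted 0.0691). Without the 2 libraries farthest from the Hspb7 median its r was 0.741 (permutation p = 0.0117). Hspb1 with Hspb7 had r = 0.837 and Hspb1 with Cryab r = 0.826 (permutation p = 0.00195 and 0.00172, both adjusted 0.0136), with rho of 0.469 and 0.636 (permutation p = 0.129 and 0.0299, adjusted 0.226 and 0.137). Both relations rest on the 2 outermost Hspb1 libraries, since r was 0.470 and 0.489 without them (permutation p = 0.174 and 0.151). No rho passed after adjustment. Taken as deviations from each group's mean, the 3 pairs had r of 0.882, 0.807 and 0.814. The groups were not alike in this: over the 4 libraries of each group, given as a description, r of Hspb1 with Hspb7 was 0.971 at 70 dB, -0.475 at 94 dB and 0.951 at 105 dB. Hspb8 and Bag3, whose proteins form 1 complex, had r = -0.042 (permutation p = 0.899, adjusted 0.899).

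Muscle markers were set beside the genes because several of the family are abundant in muscle. Of 15 skeletal muscle markers 14 passed the filter, and Tnnc2 was at or near 0. Their summed level ranged over 6890 to 10640 CPM in 70 dB libraries, 5742 to 11483 CPM in 94 dB libraries and 8813 to 11255 CPM in 105 dB libraries. None of the 14 was called in any comparison by edgeR, with 1, 0 and 1 at an unadjusted p under 0.05 at 94 dB against 70 dB, 105 dB against 70 dB and 105 dB against 94 dB, and the same counts called by DESeq2. Smooth muscle and pericyte markers summed to 386 to 417, 326 to 421 and 402 to 418 CPM at 70, 94 and 105 dB, and those of cardiac and slow muscle to 132 to 249, 183 to 355 and 186 to 305 CPM. Schwann cell markers summed to 3144 to 5137, 2588 to 3579 and 2645 to 3673 CPM in the same order, and erythroid genes to 17395 to 21357, 18051 to 31567 and 21478 to 30755 CPM. At 94 dB against 70 dB edgeR called 3 of 8 Schwann cell, 3 of 6 erythroid, 1 of 9 smooth muscle and pericyte and 1 of 6 cardiac and slow muscle genes. Over all genes 26.1% were called there. At 105 dB against 94 dB it called 0, 2, 2 and 0 in that order (17.3% of all genes). At 105 dB against 70 dB edgeR called 0 in each list, and DESeq2 1, 1, 0 and 0. Across the 12 libraries Hspb6 followed the summed skeletal markers with r = 0.839 (permutation p = 7.40e-04, adjusted 0.00518 over 7 genes) and rho of 0.699 (permutation p = 0.0140, adjusted 0.0983). Its r was 0.658 without the 2 libraries farthest from the marker median (permutation p = 0.0448) and 0.903 as deviations from group means. For the other 6 genes r was 0.0078 to 0.505 and not called (permutation p adjusted 0.301 to 0.980). Hspb7, however, had r = 0.505 with rho of 0.629 (permutation p = 0.0926 and 0.0319, adjusted 0.301 and 0.112) and r = 0.728 without the same 2 libraries (permutation p = 0.0156), which is above the Hspb6 value there.

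**Figure D4:**
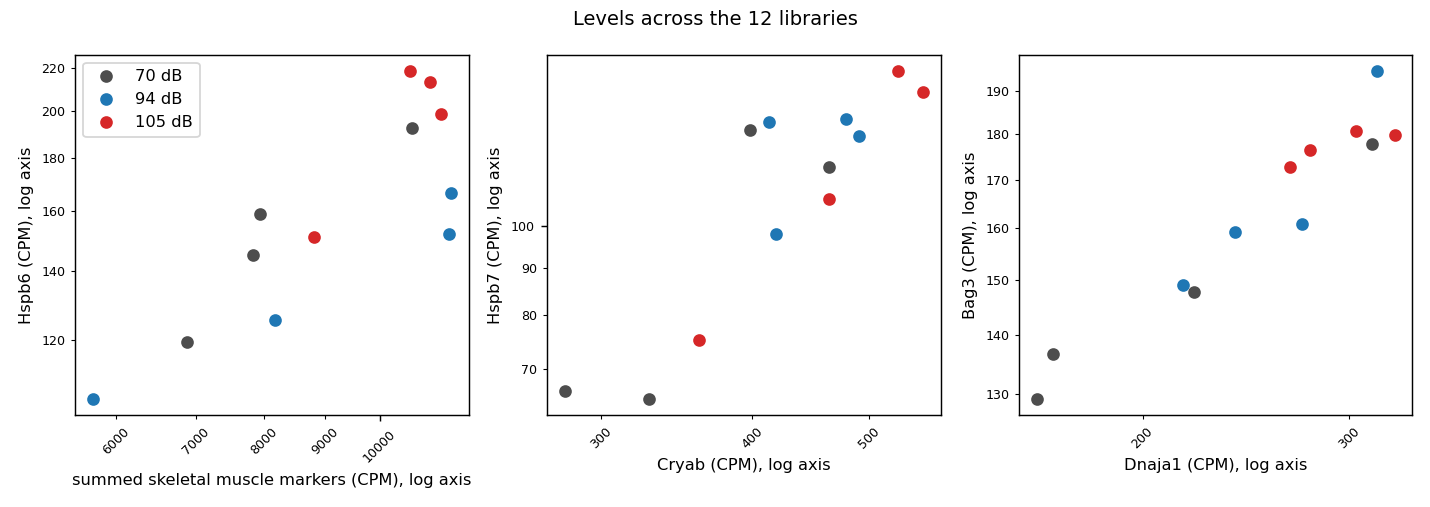
Each point is 1 of the 12 libraries on log axes in CPM, coloured by noise level, for Hspb6 against the summed skeletal muscle markers (r = 0.839), Hspb7 against Cryab (r = 0.887) and Bag3 against Dnaja1 (r = 0.962). The colours mix along each trend, with 70 dB libraries at the low end of the Cryab and Dnaja1 panels.

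The genes whose pattern over the 12 libraries was most like each member were taken as the 3 with the highest Pearson's r, given as a description of ranks without a test. Bag3 had Dnaja1 (0.962) and Dnajb4 (0.922), which encode J-domain cochaperones, and the Notch ligand gene Dll1 (0.905). Hspb1 had Srsf7 (0.950), Xirp1 (0.934) and Flnc (0.917), which encode a splicing factor and a pair of actin-binding proteins of striated muscle. Hspb7 had Csrp3 (0.974), Ankrd2 (0.973) and Hcar1 (0.902), and Cryab had Mustn1 (0.951), Pla1a (0.913) and Hcar1 (0.903). Hspb6 had Acta1 (0.941), which is also one of the muscle markers, Mybpc1 (0.937) and Retnla (0.931). Hspb2 had the mitochondrial genes Atp5o (0.984) and Timm23 (0.977) and the sphingosine kinase gene Sphk2 (0.978), and Hspb8 had Chmp7 (0.961), Immp2l (0.953) and Ubl4a (0.921). The 12 points share depth and composition within each library, and the genes were picked as the extremes of a ranking.

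The wider family and its partners were counted from lists. Of 10 other small heat shock and BAG genes 8 were tested, and Hspb9 and Odf1 did not pass the filter. Bag6, which guards newly made membrane proteins, rose at 94 dB with a log2 fold change of 0.20 and read -0.21 at 105 dB against 94 dB (edgeR adjusted p = 0.0218 and 0.0254). The first Bag6 call held in 14 of 21 alternatives and the second in 12. Both calls and both directions were lost with the GC and length trend removed (-0.010 and 0.026). Over all genes 26.1% and 17.3% were called in these comparisons. The other 7 were not called in any comparison. At 105 dB against 70 dB edgeR called 0 of the 8, with 2 at an unadjusted p under 0.05 and 0 called by DESeq2. An unadjusted edgeR p of 0.0490 ranked 3606 among the 19497 genes tested there.

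Of 32 partners of BAG3 and HSF1, 7 rose and 3 fell at 94 dB, 1 rose at 105 dB, and 3 were higher and 5 lower at 105 dB against 94 dB. The shares called, 10, 1 and 8 of 32, stand beside 26.1%, 1.62% and 17.3% of all genes. Their median log2 fold changes were 0.064, 0.14 and 0.14 in the same order, against -0.018, -0.0039 and 0.0015 over all genes. The J-domain gene Dnajb2 rose at 94 dB to 147 ± 7.85 CPM, against 110 ± 4.68 CPM at 70 dB (SD, n = 4; edgeR adjusted p = 3.04e-04), and the HSP90 cochaperone gene Fkbp4 rose to 342 ± 17.6 CPM, against 258 ± 28.4 CPM at 70 dB (edgeR adjusted p = 0.00177). Both calls at 94 dB held in all 21 alternatives. Dnajb1, the HSP70 cochaperone gene, was the 1 partner called at 105 dB, with 161 ± 21.1 CPM at 105 dB against 90.5 ± 27.2 CPM at 70 dB (SD, n = 4; edgeR adjusted p = 0.0477). That call held in 3 of 21 alternatives, with adjusted p of 4.27e-05 to 0.154, and was lost when any library other than 70 dB replicate 3 was left out. The ubiquitin gene Ubb rose at 94 dB with a log2 fold change of 0.51 (edgeR adjusted p = 0.00293), a call lost without 94 dB replicates 3 and 4 (edgeR adjusted p = 0.0665). None of 7 filament genes that the chaperones protect (Actb, Des, Vim, Gfap, Nefl, Nefm and Nefh) was called by edgeR in any comparison, with 0, 0 and 1 at an unadjusted p under 0.05 and 0, 0 and 1 called by DESeq2.

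Depth was 31141706 to 42317781 counts per library in the 70 dB group, 32302796 to 38733490 in the 94 dB group and 32057388 to 40239711 in the 105 dB group. Genes of the mitochondrial genome took 5.08% to 5.68% of counts in 70 dB libraries, 2.68% to 3.59% in 94 dB libraries and 4.43% to 5.35% in 105 dB libraries. A count of 3 corresponds to 0.0703 to 0.0966 CPM per library, far under the lowest value of these 7 genes. All 12 markers of the cochlea passed the filter and summed to 8294 to 10038 CPM over the 12 libraries, most of it Coch with group means of 5953 to 6870 CPM. The outer hair cell gene Slc26a5 was near 0 with group means of 0.250 to 0.362 CPM, and Oc90 had 1.40 to 1.60 CPM. By edgeR, Otos rose and Gjb2 and Tecta fell at 94 dB against 70 dB (adjusted p = 0.00616, 6.92e-04 and 0.00972), none was called at 105 dB against 70 dB (1 at an unadjusted p under 0.05, 0 by DESeq2), and 4 were called at 105 dB against 94 dB. The part of these shifts in the values of the 7 genes was not tested.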

How the data were processed

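Read counts per Ensembl gene were analysed as deposited, 1 table of 12 libraries from cochlear RNA. Per the submitters' processing notes the authors used CASAVA, STAR and featureCounts 1.5.0-p3 with build mm10; their settings, annotation and strandedness were not stated in what was used here. Groups and replicate numbers came from titles. Symbols, positions and exon lengths are from GENCODE M21 (GRCm38, also named mm10), which matched 35449 of 35496 genes, and promoters from RefSeq.

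Low genes were removed with filterByExpr (min.count 10). edgeR 4.0.16 in R 4.3.3 fitted all 12 libraries with TMM factors, a mean per group and robust glmQLFit, and glmQLFTest gave p-values adjusted by Benjamini-Hochberg over 19497 genes. Standard errors were derived from the F statistic. CPM are TMM-scaled; RPKM divide CPM by exon length; log2 CPM used a prior count of 2. Correlations had 100000 permutations. The script was tested on simulated data. Floors cover counting error only.

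The alternatives were DESeq2's size factors, upper-quartile factors, no low-count filter, DESeq2 1.42.0, only the 8 libraries compared, a replicate block, a GC and length trend removed (alone and with the block), no 94 dB replicates 3 and 4, and each library left out. The text names the 7 genes, per list up to 8 called genes with the smallest p, and the 3 genes most like each member; some items are not reported here. Members and lists were chosen with earlier results of these data known.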

Additional observations from a re-analysis of the deposited data

How the results depend on the processing

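Over 21 alternatives the members called numbered 1 at 94 dB against 70 dB (1 to 3 without each library in turn), 0 at 105 dB against 70 dB (0 to 1) and 1 at 105 dB against 94 dB (1 to 2). The last was 2 with DESeq2 and with only the 8 libraries compared, and 0 after removal of the GC and length trend, with the replicate block and that trend removed, and without 94 dB replicates 3 and 4. Over all genes, calls at 94 dB against 70 dB were 5085, with 3133 after removal of the trend, 1610 without 94 dB replicates 3 and 4, and 3452 to 5409 without each library. At 105 dB against 70 dB they were 316, with 523 without the filter, 887 by DESeq2, 479 with the replicate block, 738 with the block and the trend removed, and 126 to 399 without each library. At 105 dB against 94 dB they were 3372, with 1859 after removal of the trend, 1986 with the block and the trend removed, 217 without 94 dB replicates 3 and 4, and 1650 to 3798 without each library. Upper-quartile factors moved the balance to 2329 higher and 2847 lower at 94 dB against 70 dB (2716 and 2369 as reported), 189 and 135 at 105 dB against 70 dB (217 and 99), and 1702 and 1667 at 105 dB against 94 dB (1572 and 1800), so the larger side turned in both comparisons with 94 dB. No pairing by replicate number was seen. Deviations from group means correlated at -0.15 to 0.18 between libraries of the same number and at -0.19 to 0.15 between those of other numbers. Of 12 libraries, 4 correlated best with their own number. Such values cannot exclude shared handling. In the titles the sample codes of 105 dB replicates 3 and 4 differ from their replicate numbers, and a pairing by code was not examined. The replicate block alone left the members' counts at 1, 0 and 1.

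These log2 fold changes turned sign. Hspb8 at 105 dB against 70 dB was -0.0020 with upper-quartile factors, -0.015 with the trend removed, and -0.10 to 0.096 without each library. Bag3 at 94 dB against 70 dB was -0.011 with the trend removed and -0.010 with the block as well, and at 105 dB against 94 dB it was -0.0040 without 94 dB replicates 3 and 4. Hspb7 at 105 dB against 94 dB was 0.16 with the trend removed, 0.11 with the block as well, 0.043 without 94 dB replicates 3 and 4, and -0.17 to 0.12 without each library. Bag6 turned to -0.010 at 94 dB and 0.026 at 105 dB against 94 dB with the trend removed, with the block or without it. The cause was not tested. As deviations from group means, 3 pairs and 1 relation with muscle markers passed, as before.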
